A study of Sus scrofa with 15 samples.

Results

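The genes described here carry out or control cell division. A list of 46 gene symbols was matched to the rows of the deposited table of read counts, and 37 of them were found among its 30476 genes. The rule matches symbols and uses no measured value, but the list was drawn up with earlier results of these data known. By role, 12 of the 16 listed S phase genes, 17 of the 22 listed mitosis genes, all 4 drivers of G1 (CCND1, CCND2, CDK2 and CDK4) and all 4 inhibitors of cyclin-dependent kinases (CDKN1A, CDKN1B, CDKN1C and CDKN2C) were found. Each of the 37 passed the filter on low counts, with between 30 and 2467 reads per gene and library.

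A cell that commits to division passes from G1, where D-type cyclins and their kinases release the E2F factors, into S phase, where the MCM helicase opens the DNA and PCNA clamps the polymerases to it. In G2 and mitosis, cyclin B with CDK1, the Aurora and Polo kinases and the kinesins condense, align and separate the chromosomes, and the anaphase-promoting complex then destroys the cyclins. In the young testis, Sertoli cells still multiply, and the number reached then bears on later sperm output, while germ cells, interstitial cells and vessel cells can divide as well.

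Testis RNA of 15 male Dutch Landrace Duroc piglets was sequenced, 1 library per piglet and 3 piglets per diet, to ask whether formulas change the testis. All piglets suckled until day 2 after birth and were killed on day 21. In between, the Sow group drank sow milk from bowls, Milk a cow's milk formula, Soy a soy formula, M + E2 the cow's milk formula with estradiol (E2) as positive control, and M + G the cow's milk formula with genistein. The labels give 15 to 30 pmol/L as the aim for serum E2. The levels that the study measured were above this aim in every diet and by far the highest in M + E2. For genistein the figure is 84 mg/L, which the labels tie to serum and the study's methods to the diet. These are whole testes, so fewer cells of a type and less RNA per cell cannot be told apart.

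Between 6097552 and 9488579 reads per library fell on genes (median 8198038). In the column names 1 Sow and 1 Soy library carry no number, so libraries are listed as unnumbered, 2 and 3 in these groups and as 1, 2 and 3 elsewhere. Across genes Sow 2 had r of 0.972 and 0.968 with the other Sow libraries. With libraries of the other diets its r ran from 0.865 (Soy 3) to 0.962 (Soy unnumbered). The r among the other libraries is not given here for comparison. As in the study's methods, it is left out of the comparisons. Sow then has 2 libraries, and counts with the library Sow 2 put back are given beside the others. All 4 comparisons with Sow share these libraries and are therefore not independent of each other. Sow 2 held the extreme value of several genes, such as the highest PCNA and CDK1 and the lowest MCM2 and CENPF of the 15 libraries. Markers of the main testis cells were present: the summed level of 10 Sertoli cell markers ran from 3317 to 8418 CPM (read counts scaled to the library's total), of 4 Leydig cell markers from 10337 to 24556 and of 9 germ cell markers from 151.7 to 362. In M + E2 against Sow the Sertoli cell sum was higher (7520 to 8418 against 5232 to 5694), with CLU as its largest part and with 7 of the 10 markers higher and KITLG among the 3 lower. The germ cell sum was higher too (311 to 362 against 203 to 244), mostly through KIT. Of the 8 germ cell markers tested, 5 were higher and 3 (UCHL1, DDX4 and MAEL) lower, and 0 were called, against 5.0% of all genes. The Leydig cell sum was lower (12898 to 13782 against 19176 to 19817), with 4 of 4 markers lower and 1 called (5.0% of all genes). The sum of 6 endothelial cell markers was higher (613 to 808 against 260 to 412), with a median log2 fold change of 0.81. By edgeR's quasi-likelihood test 4 of the 6 had an unadjusted p below 0.05, against 33.8% of all genes. The endothelial cell sum was above Sow in each library of Milk, Soy and M + G as well. The part of these markers in the results below was not tested.

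The level of a gene list in a library is the mean over its genes of log2 CPM less each gene's mean over the 15 libraries. For the S phase genes it was 0.11 ± 0.07 in Sow, 0.03 ± 0.16 in Milk, -0.07 ± 0.18 in M + G, 0.04 ± 0.02 in M + E2 and -0.11 ± 0.15 in Soy (mean ± SD, n = 3, with Sow 2). The diets overlapped except that each Sow library was above each Soy and M + G library and each M + E2 library above each Soy library. These gaps were small, since the lowest Sow library was at 0.04 and the highest M + G library at 0.03. For the mitosis genes the level was 0.20 ± 0.09 in Sow, 0.08 ± 0.28 in Milk, -0.09 ± 0.11 in M + G, 0.02 ± 0.26 in M + E2 and -0.21 ± 0.07 in Soy. The Soy libraries, at -0.15, -0.19 and -0.29, lay below each Sow and each Milk library, and the M + G libraries, at -0.03, -0.23 and -0.03, also lay below each Sow library. In Milk a single library, Milk 2, stood at 0.41 with the others at -0.08, and in M + E2 a single library, M + E2 3, stood at 0.32 with the others at -0.07 and -0.18. S phase and mitosis levels went together over the 15 libraries, with r = 0.81 and rho = 0.93 (r = 0.82 without Soy 3 and M + G 2, 0.78 without Sow 2 and 0.70 for deviations from the diet means). Library and normalization are shared by both levels, so this is a description.

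**Figure D1:**
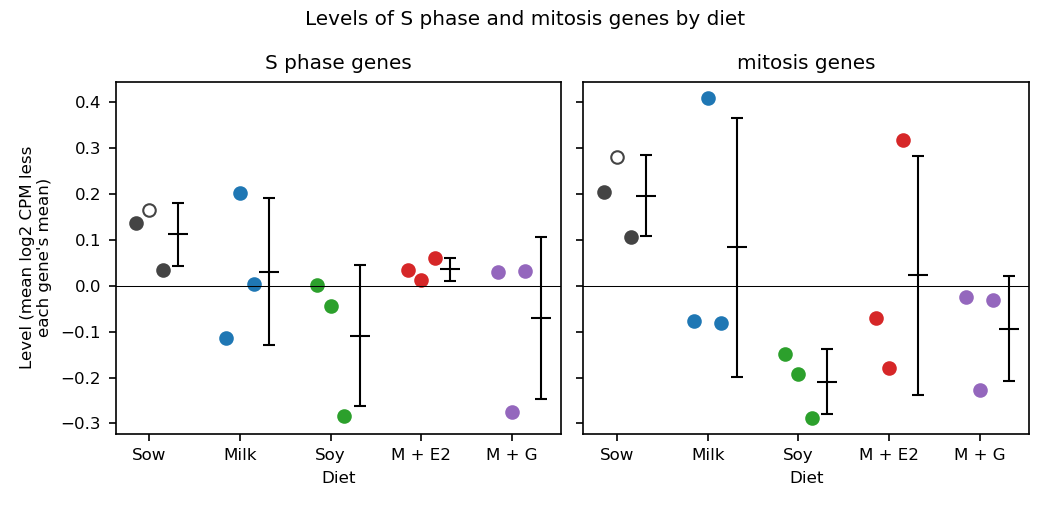
Level of the 12 S phase genes (left) and the 17 mitosis genes (right) in each library by diet, on a log2 scale relative to each gene's mean. Points are libraries, the open point is Sow 2, and bars give the mean ± SD of the 3 libraries; the Soy points of the mitosis panel lie between -0.29 and -0.15, below every Sow and Milk point.

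The libraries highest in peritubular myoid cell markers were Soy 3 (2.39), Milk 2 (1.91) and M + G 2 (1.53), with the other 12 libraries between -1.77 and 0.20 on the same scale. Of these, Soy 3 and M + G 2 had the lowest S phase levels (-0.28 and -0.28), and Milk 2 had the highest level of both lists (0.20 and 0.41). These 3 libraries thus lay at both ends of the S phase levels. The part of the marker level in them was not tested.

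The comparison of M + E2 with Sow sets the estradiol formula against the natural diet. The 2 groups differ by both the cow's milk formula and the estradiol, whose parts this comparison cannot tell apart. A call needed an adjusted p no higher than 0.05 together with at least a 2-fold change. By edgeR's quasi-likelihood test with Benjamini-Hochberg adjustment over 15634 genes, 0 of the 37 cell cycle genes were called, where 5.0% of all genes were. An unadjusted p below 0.05 was reached by 12 of 37 (32.4%), against 33.8% of all genes, and the groups did not overlap for 24 of 37 (64.9%), against 62.1%. Overlap was counted after scaling without Sow 2, whereas printed CPM are scaled over all 15 libraries, so libraries that nearly touch can differ between them. Both shares lay near those of all genes. DESeq2's Wald test called 1 member (CENPF, 2.70% of members and 8.80% of all genes) and edgeR's exact test on the 2 groups called 2 (CDK1 and CENPF, 5.41% and 12.6%). The groups share 1 estimate of the spread, and without Milk 3 in the fit CDK1 and CENPF were called (9.81% of all genes), and without Soy unnumbered CENPF was (8.49%). With Sow 2 put back, 3 of 37 were called (CDK1 and PCNA lower, CENPF higher in M + E2), against 18.1% of all genes, and 15 of 37 (40.5%) passed the adjusted p alone, against 37.7%.

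Within both roles the differences pointed in opposite directions. Of the S phase genes, M + E2 had 5 higher and 7 lower, at a median log2 fold change of -0.09, and of the mitosis genes 7 higher and 10 lower, at a median of -0.21 (all genes 0.01). Single members ran from -1.03 for CDK1 to 1.04 for CENPF.

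**Figure D2:**
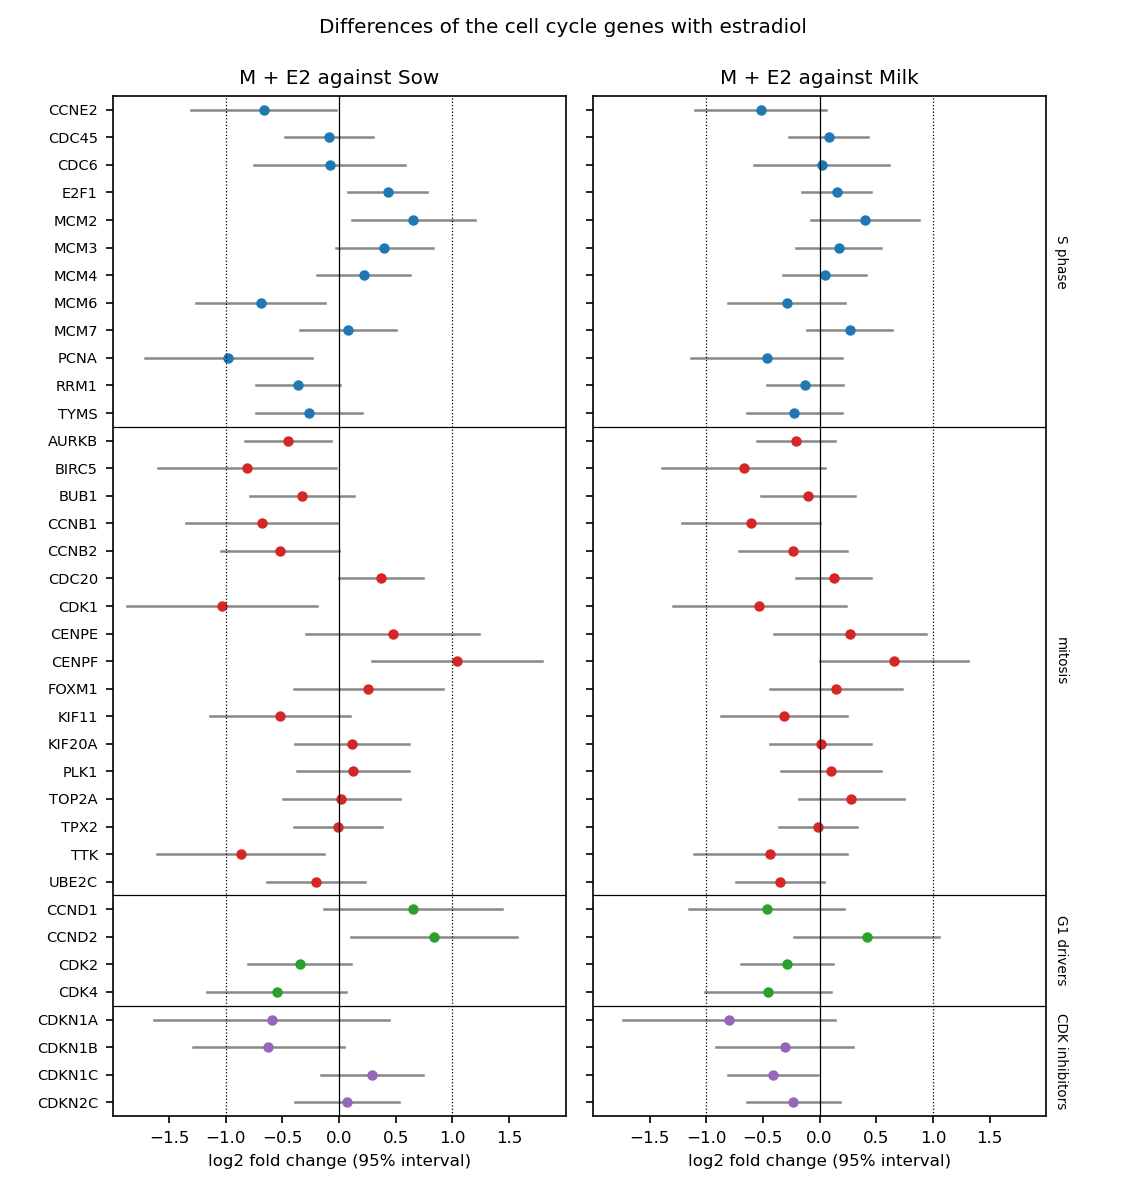
Log2 fold change of each of the 37 cell cycle genes in M + E2 against Sow (left, Sow 2 left out) and against Milk (right), with its 95% interval as a line and dotted lines at 2-fold. Points are coloured by role; CENPF at 1.04 and CDK1 at -1.03 are the most distant from 0 on the left, and on the right the points lie between -0.80 and 0.66.

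Among the S phase genes, PCNA, the sliding clamp of the DNA polymerases (chromosome 17, 14137746 to 14142584 in the RefSeq annotation of Sscrofa11.1), showed the widest difference. It stood at 204, 311 and 172 CPM in Sow, 146, 183 and 79.1 in Milk, 98.2, 105 and 95.9 in M + G, 78.2, 103 and 119 in M + E2 and 149.6, 92.7 and 65.6 in Soy. Every Sow library was above every Soy, M + E2 and M + G library, while Milk reached from the M + E2 range into that of Sow. In M + E2 against Sow its log2 fold change was -0.98 ± 0.34 (SE), a level of 100.2 ± 20.7 CPM (SD, n = 3) against 188 ± 22.4 (n = 2), with an adjusted p of 0.0741 that became 0.0152 with Sow 2.

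The subunits of the MCM helicase, which share 1 ring in the cell, did not move as a unit. MCM2 (chromosome 13, 72630378 to 72651270) was measured at 58, 42.5 and 58.2 CPM in Sow, 57.4, 58.8 and 97.8 in Milk, 91.7, 63.7 and 97 in M + G, 97, 102 and 88.5 in M + E2 and 60.1, 82.3 and 81.5 in Soy. All M + E2, M + G and Soy libraries were above all Sow libraries, and Milk overlapped Sow through Milk 1. The log2 fold change in M + E2 against Sow was 0.65 ± 0.25 (adjusted p = 0.0926, and 0.0137 with Sow 2). MCM6, named after its values were seen, went the other way, at 154, 208 and 139.8 CPM in Sow, 116, 151 and 77.7 in Milk, 92.8, 89 and 90.3 in M + G, 80.1, 89.7 and 116 in M + E2 and 131, 92.7 and 77.5 in Soy. Here the Sow libraries were the higher ones, overlapped only by Milk 2, and M + E2 against Sow gave -0.69 ± 0.27 (adjusted p = 0.0923, and 0.0233 with Sow 2). MCM3 and MCM4 leaned the way of MCM2, at 0.40 ± 0.20 (adjusted p = 0.169, and 0.0245 with Sow 2) and 0.22 ± 0.19, and MCM7 gave 0.08 ± 0.20 with an interval from -0.35 to 0.50. Over the 15 libraries MCM2, MCM3 and MCM4 had pairwise r from 0.87 to 0.94, and MCM6 had r of -0.85, -0.77 and -0.71 with them.

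**Figure D3:**
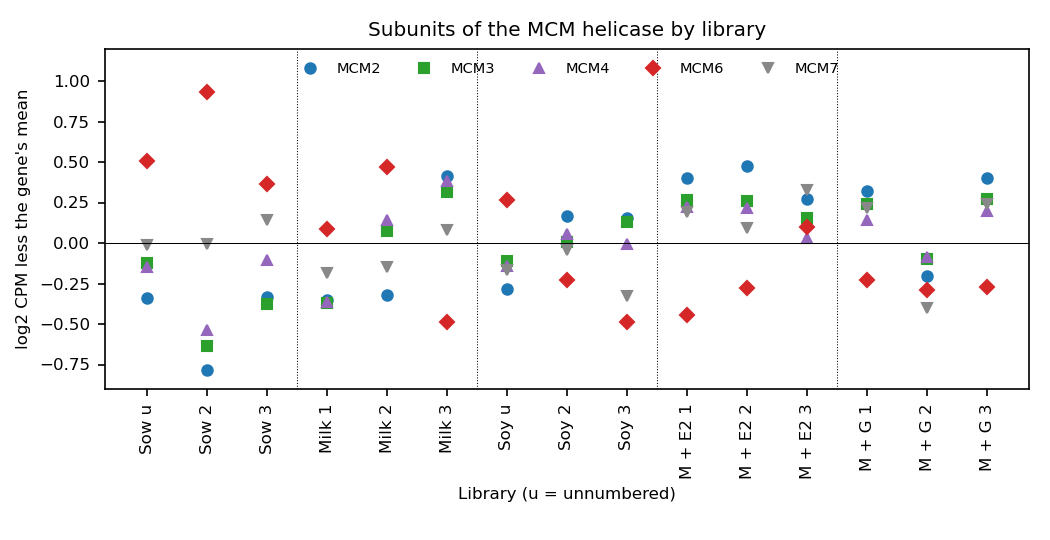
Log2 CPM of the 5 measured MCM subunits less each gene's mean over the 15 libraries, by library and diet. MCM6 (red) is the highest of the 5 in each Sow library and in Milk 1, Milk 2 and Soy unnumbered, where MCM2 (blue) is low. In Milk 3, Soy 2, Soy 3, M + E2 1, M + E2 2, M + G 1 and M + G 3 MCM2 is the highest and MCM6 the lowest.

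Set as a ratio within a library, MCM2 over MCM6 was 0.376, 0.204 and 0.416 in Sow, 0.496, 0.39 and 1.26 in Milk, 0.988, 0.716 and 1.07 in M + G, 1.21, 1.14 and 0.761 in M + E2 and 0.46, 0.888 and 1.05 in Soy. Milk 1, Milk 2 and Soy unnumbered were at the Sow side and each of the other formula libraries was at least 0.716. Only the change of this ratio between libraries can be read, since levels here are not per length.

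E2F1, the transcription factor that turns on many S phase genes (chromosome 17, 37178587 to 37190118), was at 29.3, 26 and 31 CPM in Sow, 32.8, 37.6 and 42.8 in Milk, 38.8, 36 and 42.6 in M + G, 44.4, 45.9 and 37.5 in M + E2 and 29.8, 34.4 and 34.5 in Soy. The Sow libraries were below those of Milk, M + E2 and M + G and overlapped Soy. M + E2 against Sow gave 0.43 ± 0.16 (adjusted p = 0.0898, and 0.0122 with Sow 2). The remaining S phase genes were CCNE2, the partner of CDK2 at the start of replication, at -0.67 ± 0.30, the ribonucleotide reductase subunit RRM1 at -0.37 ± 0.17, the thymidylate synthase TYMS at -0.27 ± 0.22, CDC45 at -0.09 ± 0.18 and the loading factor CDC6 at -0.08 ± 0.31. None of these 5 passed the adjusted p with or without Sow 2 except CCNE2 with it (0.0306).

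Among the mitosis genes, CDK1, the kinase that drives entry into mitosis (chromosome 14, 64233945 to 64255290), lay at 60.7, 101 and 51 CPM in Sow, 39, 61.4 and 21.8 in Milk, 27.3, 29.8 and 23.4 in M + G, 21.5, 30.4 and 33.9 in M + E2 and 40.4, 24.2 and 15.8 in Soy. As for PCNA, each Sow library exceeded each Soy, M + E2 and M + G library, and Milk ran across both ranges. The log2 fold change in M + E2 against Sow was -1.03 ± 0.39 (interval -1.87 to -0.20, adjusted p = 0.0888, and 0.0184 with Sow 2). Its partner CCNB1, cyclin B1 (chromosome 16, 47338239 to 47348385), had 52.9, 83.8 and 56.1 CPM in Sow, 47.9, 79.7 and 32 in Milk, 39.2, 32.6 and 37.8 in M + G, 30.9, 32.3 and 43.4 in M + E2 and 50.1, 36.7 and 28.6 in Soy. The Sow libraries again lay above all Soy, M + E2 and M + G libraries, and Milk 2 reached the level of Sow 2. M + E2 against Sow gave -0.68 ± 0.31 (adjusted p = 0.143, and 0.0386 with Sow 2).

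CENPF, a large protein of the kinetochore that builds up in G2 (chromosome 9, 128948386 to 129012241), had the smallest p of all members in M + E2 against Sow, in the opposite direction. Its level was 30.7, 20.4 and 32.2 CPM in Sow, 31.3, 35.5 and 60.1 in Milk, 65.1, 38.8 and 61.4 in M + G, 65.8, 52.5 and 85 in M + E2 and 28, 50 and 56.2 in Soy. The M + E2 and M + G libraries were all above Sow, and within Milk and Soy the libraries split, with Milk 3, Soy 2 and Soy 3 near the M + E2 range. The mean was 67.8 ± 16.3 CPM in M + E2 (n = 3) and 31.4 ± 1.1 in Sow (n = 2), a log2 fold change of 1.04 ± 0.35 with an adjusted p of 0.0671 (0.0104 with Sow 2). CENPE, a motor of the same structure, gave 0.47 ± 0.35, with an interval from -0.29 to 1.23.

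TOP2A, the topoisomerase that untangles chromosomes and a common marker of cycling cells (chromosome 12, 22001300 to 22028452), differed little between M + E2 and Sow. Its levels were 114, 101 and 121 CPM in Sow, 83.2, 115 and 105 in Milk, 131, 79.7 and 112 in M + G, 127, 93.3 and 154 in M + E2 and 75.9, 98.8 and 86.8 in Soy. The M + E2 libraries spread around those of Sow. Each Soy library was below each Sow library, at -0.44 ± 0.24 in Soy against Sow (adjusted p = 0.36). M + E2 against Sow gave 0.02 ± 0.24, with an interval from -0.50 to 0.54, and its sign turned without M + E2 1 (-0.01) or M + E2 3 (-0.17).

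PLK1, the Polo kinase of mitosis (chromosome 3, 22537814 to 22550901), was at 25.7, 18.7 and 22.4 CPM in Sow, 18, 26 and 31.6 in Milk, 25.2, 23.5 and 27.1 in M + G, 26.2, 26.1 and 30.2 in M + E2 and 17, 25.9 and 24.7 in Soy, and gave 0.13 ± 0.23 in M + E2 against Sow (adjusted p = 0.731). The lowest M + E2 library (26.1 CPM) and the highest Sow library (25.7 CPM) nearly touched, and overlapped when scaled without Sow 2. AURKB, the Aurora kinase that corrects chromosome attachment (chromosome 12, 53410833 to 53426165), stood at 37, 42.1 and 34.5 CPM in Sow, 29.4, 34.2 and 29.4 in Milk, 27.7, 22.7 and 30.3 in M + G, 26.3, 24.3 and 31.4 in M + E2 and 27.9, 25.6 and 21.9 in Soy. Each Sow library was above all 12 formula libraries, with Milk 2 next at 34.2 CPM. The log2 fold change was -0.45 ± 0.18 in M + E2 (adjusted p = 0.0958, and 0.035 with Sow 2) and -0.52 ± 0.18 in Soy (adjusted p = 0.32).

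TTK, a kinase of the spindle checkpoint, was at 33.9, 42.3 and 25.6 CPM in Sow, 21.6, 33.9 and 12.7 in Milk, 15.7, 16.4 and 15 in M + G, 16.5, 12.4 and 22.3 in M + E2 and 20.9, 17.9 and 12.6 in Soy. Each Sow library was above each M + G, M + E2 and Soy library, and Milk 2 was within the Sow range. In M + E2 against Sow TTK gave -0.87 ± 0.34 and BIRC5, survivin, -0.81 ± 0.37. The motor KIF11 and cyclin B2 (CCNB2) both gave -0.52, with SE of 0.29 and 0.24, and the checkpoint kinase BUB1 gave -0.33 ± 0.21. CDC20, which activates the anaphase-promoting complex, gave 0.37 ± 0.17, the factor FOXM1 0.26 ± 0.30, KIF20A 0.11 ± 0.23, TPX2 -0.01 ± 0.18 and UBE2C -0.21 ± 0.20. With Sow 2, TTK (0.0266), BIRC5 (0.0468) and CDC20 (0.0494) passed the adjusted p alone.

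Cyclin D1 (CCND1, chromosome 2, 3621242 to 3633380), which couples growth signals to the G1 kinases, was the single member lower in each Sow library than in every formula library. It was at 20.7, 20.3 and 30.3 CPM in Sow, 44.2, 83.6 and 43.3 in Milk, 48.3, 67 and 45.8 in M + G, 35.4, 46.3 and 44.1 in M + E2 and 32.9, 38.6 and 73.7 in Soy. The highest Sow library was at 30.3 CPM and the lowest formula library, Soy unnumbered, at 32.9 CPM. The log2 fold change against Sow was 1.12 ± 0.37 in Milk (adjusted p = 0.372), 1.04 ± 0.37 in M + G (0.144), 0.92 ± 0.37 in Soy (0.322) and 0.65 ± 0.37 in M + E2 (0.223). With Sow 2 it was called in M + G (adjusted p = 0.0275). The high values of Milk 2, Soy 3 and M + G 2 are those of the 3 libraries highest in peritubular myoid cell markers, whose part was not tested.

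Cyclin D2 (CCND2, chromosome 5, 66092483 to 66114575) had 125, 124 and 164 CPM in Sow, 142, 151 and 307 in Milk, 221, 138 and 261 in M + G, 266, 286 and 261 in M + E2 and 159.5, 199.8 and 239 in Soy. The M + E2 libraries were close to each other and above all Sow libraries, at 0.84 ± 0.34 (adjusted p = 0.106, and 0.0213 with Sow 2). CDK4, the kinase partner of both cyclins (chromosome 5, 23039206 to 23041959), went lower, at 145, 204 and 115 CPM in Sow, 143, 155 and 79.3 in Milk, 97.4, 119.5 and 96.6 in M + G, 84, 91.9 and 103 in M + E2 and 131, 80.2 and 77.3 in Soy. M + E2 against Sow gave -0.55 ± 0.29 for CDK4 (adjusted p = 0.189, and 0.0494 with Sow 2) and -0.35 ± 0.21 for CDK2 (0.254).

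The inhibitors of the kinases did not move together either. CDKN1B, p27, a brake that holds cells in G1 (chromosome 5, 59731224 to 59735831), was measured at 48, 66.7 and 50.4 CPM in Sow, 47.4, 52.1 and 22.5 in Milk, 29, 38 and 27.8 in M + G, 31.1, 29.1 and 39.9 in M + E2 and 43.8, 27 and 29.3 in Soy. Each Sow library exceeded each Soy, M + E2 and M + G library, in the same direction as CDK1 and PCNA, at -0.63 ± 0.31 in M + E2 (adjusted p = 0.171). CDKN1C, p57 (chromosome 2, 2019391 to 2022092), was highest in Milk, at 9.1, 9.9 and 11 CPM in Sow, 16.4, 16.5 and 17.8 in Milk, 13.5, 13.4 and 13.7 in M + G, 15, 11.5 and 12.2 in M + E2 and 13, 9 and 13.3 in Soy. Each Milk library was above the other 12 libraries, of which M + E2 1 was next at 15 CPM. The log2 fold change was 0.70 ± 0.21 in Milk against Sow (adjusted p = 0.365) and -0.41 ± 0.18 in M + E2 against Milk (0.269).

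CDKN1A, p21, which responds to stress and to p53 (chromosome 7, 32354776 to 32363771), varied widely between piglets of the same diet. It was at 25.2, 29.6 and 27.2 CPM in Sow, 47.7, 13.5 and 31.6 in Milk, 27, 28.4 and 25.7 in M + G, 11.3, 32.6 and 10.6 in M + E2 and 31, 44 and 35.4 in Soy. In M + E2 the libraries 1 and 3 were the lowest of the 15, and library 2 was among the higher ones. M + E2 against Sow gave -0.60 ± 0.48 (adjusted p = 0.398) and Soy against M + E2 1.08 ± 0.43 (0.315). CDKN2C, p18 (chromosome 6, 161160290 to 161166681), was at 29.6, 31.8 and 25.6 CPM in Sow, 31.8, 45.9 and 27.4 in Milk, 31.2, 28.8 and 32.5 in M + G, 29.8, 27.1 and 34.1 in M + E2 and 29.6, 23.1 and 23.8 in Soy. All diets overlapped M + E2 or Sow in part, and M + E2 against Sow gave 0.07 ± 0.21 (interval -0.39 to 0.53), a value whose sign turned without M + E2 3 (-0.04) or with Sow 2 in place of Sow 3 (-0.02).

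Genistein formula was set against sow milk in the same fit, with the same Sow libraries as control. By edgeR's quasi-likelihood test 0 of 37 members were called in M + G against Sow (0.0576% of all genes), 12 of 37 (32.4%) had an unadjusted p below 0.05 (23.6% of all genes), and 22 (59.5%) did not overlap (53.5%). DESeq2 called none of them, and the exact test 2 (CCND1 and CDK1, 5.41% of members and 6.48% of all genes). For DESeq2 the share of all genes is not given here. With Sow 2 the members called were CCND1, CDK1, PCNA and TTK, 4 of 37 against 10.3% of all genes, and 9 (24.3%) passed the adjusted p alone, against 22.3%. Without Sow 2, CDK1 stood at -1.09 ± 0.39, TTK at -0.96 ± 0.34 and PCNA at -0.95 ± 0.34, with adjusted p of 0.144, 0.145 and 0.145. The medians were -0.17 for S phase and -0.20 for mitosis, against 0.02 for all genes.

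Soy formula against sow milk gave the lowest median of the mitosis genes among the 8 comparisons. No member was called by edgeR's quasi-likelihood test, DESeq2 or the exact test (0 of 37, with 0.0128% of all genes by the first, and 0.0261% with Sow 2, when again 0 members were). For DESeq2 and the exact test the share of all genes is not given here. The median log2 fold change of the mitosis genes was -0.44 and of the S phase genes -0.19, against 0.02 for all genes. Of the 17 mitosis genes, 14 were lower, and 11 (64.7%) lay below Sow without overlap, where 18.7% of all genes did. An unadjusted p below 0.05 in the lower direction was reached by 5 of the 17 (29.4%), against 7.46% of all genes. Over all 37 members the shares were 54.1% without overlap (37.0% of all genes) and 18.9% at an unadjusted p below 0.05 (15.0%). CDK1 was at -1.07 ± 0.39 (adjusted p = 0.32), KIF11 at -0.77 ± 0.29 (0.322) and TTK at -0.81 ± 0.34 (0.322), and the 3 mitosis genes that were higher in Soy reached at most 0.50.

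UBE2C, the enzyme that marks cyclins for destruction, was named after its values were seen, since its p in the test over the 5 diets was the smallest of the members. It stood at 34.7, 31.5 and 31.6 CPM in Sow, 33.8, 48.2 and 31.5 in Milk, 32.2, 26.5 and 30.5 in M + G, 25.9, 27.9 and 36.6 in M + E2 and 24.2, 23.3 and 22.7 in Soy. The Soy libraries lay close together and below the other 12 libraries. Its log2 fold change was -0.51 ± 0.20 in Soy against Sow (adjusted p = 0.322) and -0.66 ± 0.18 in Soy against Milk (0.999).

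Of the 4 comparisons with Sow, that of cow's milk formula had the fewest members without overlap. In Milk against Sow 0 members were called by edgeR's quasi-likelihood test (0.0192% of all genes, and 0 members with Sow 2, at 0.0587%) or by the other tools, 2 of 37 (5.41%) had an unadjusted p below 0.05 (12.1% of all genes) and 5 (13.5%) did not overlap (31.2%). CDKN1C and CCND1 were the 2. For the other tools the share of all genes is not given here. The medians were -0.13 for S phase and -0.08 for mitosis genes, and without Milk 2 the latter was -0.31.

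Comparisons among the formulas carry no Sow library. In M + E2 against Milk 0 of 37 members were called (0% of all genes), 2 (5.41%) had an unadjusted p below 0.05 (17.7%) and 2 did not overlap (17.6%). CDKN1C, CENPF and CCNB1 had the smallest p, with log2 fold changes of -0.41 ± 0.18, 0.66 ± 0.30 and -0.60 ± 0.28 and adjusted p of 0.269, 0.278 and 0.286. The median of the S phase genes was 0.03 and that of the mitosis genes -0.10, against -0.03 for all genes. Without M + E2 3 the mitosis median was -0.31, and without Milk 1 the S phase median was -0.13.

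In M + G against Milk 0 of 37 were called (0% of all genes), 0 had an unadjusted p below 0.05 (2.60%) and 3 (8.11%) did not overlap (4.73%). In Soy against Milk 0 were called (0% of all genes), 4 (10.8%), namely UBE2C, CDKN1C, CDKN2C and KIF11, had an unadjusted p below 0.05 (2.44%), all of them lower in Soy, and 4 did not overlap (4.69%). There 31 of the 37 members and 15 of the 17 mitosis genes were lower in Soy, with a mitosis median of -0.23. In Soy against M + E2 0 were called (0.147% of all genes), 3 (8.11%), CDC20, CDKN1A and E2F1, had an unadjusted p below 0.05 (13.0%), and 6 (16.2%) did not overlap (20.1%). DESeq2 and the exact test called 0 members in each of these 4 comparisons. The shares of all genes called by these tools are not given here, so the 0 cannot be set against them. CDC20 was lower in Soy by 0.45 on the log2 scale (SE 0.15, adjusted p = 0.245), and without M + E2 3 the mitosis median of this comparison was 0.01 instead of -0.19.

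A single test of any difference over the 5 diets passed 0 of the 37 members (0.0640% of all genes), by edgeR's quasi-likelihood test at an adjusted p of 0.05 or less. Its unadjusted p was below 0.05 for 3 members (8.11%), UBE2C, CDKN1C and CDK1, against 18.1% of all genes, and the smallest adjusted p was 0.253.

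The members' largest shared pattern also ran within diets. In a principal component analysis of the 37 members over the 15 libraries, 64.4% of the variance was on the first component, of which 59.4% lay between diets. It followed the level of 16 cytosolic ribosomal protein genes, which was 0.54 to 1.34 in Sow, -0.67 to 0.50 in Milk, -0.48 to 0.03 in M + G, -0.66 to -0.05 in M + E2 and -0.77 to 0.52 in Soy. Over the 15 libraries r between the 2 was -0.98 and rho -0.97 (r = -0.97 without Sow 2 and Soy 3, and -0.96 for deviations from the diet means). All libraries share depth and scaling between the measures, so no p is given.

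**Figure D4:**
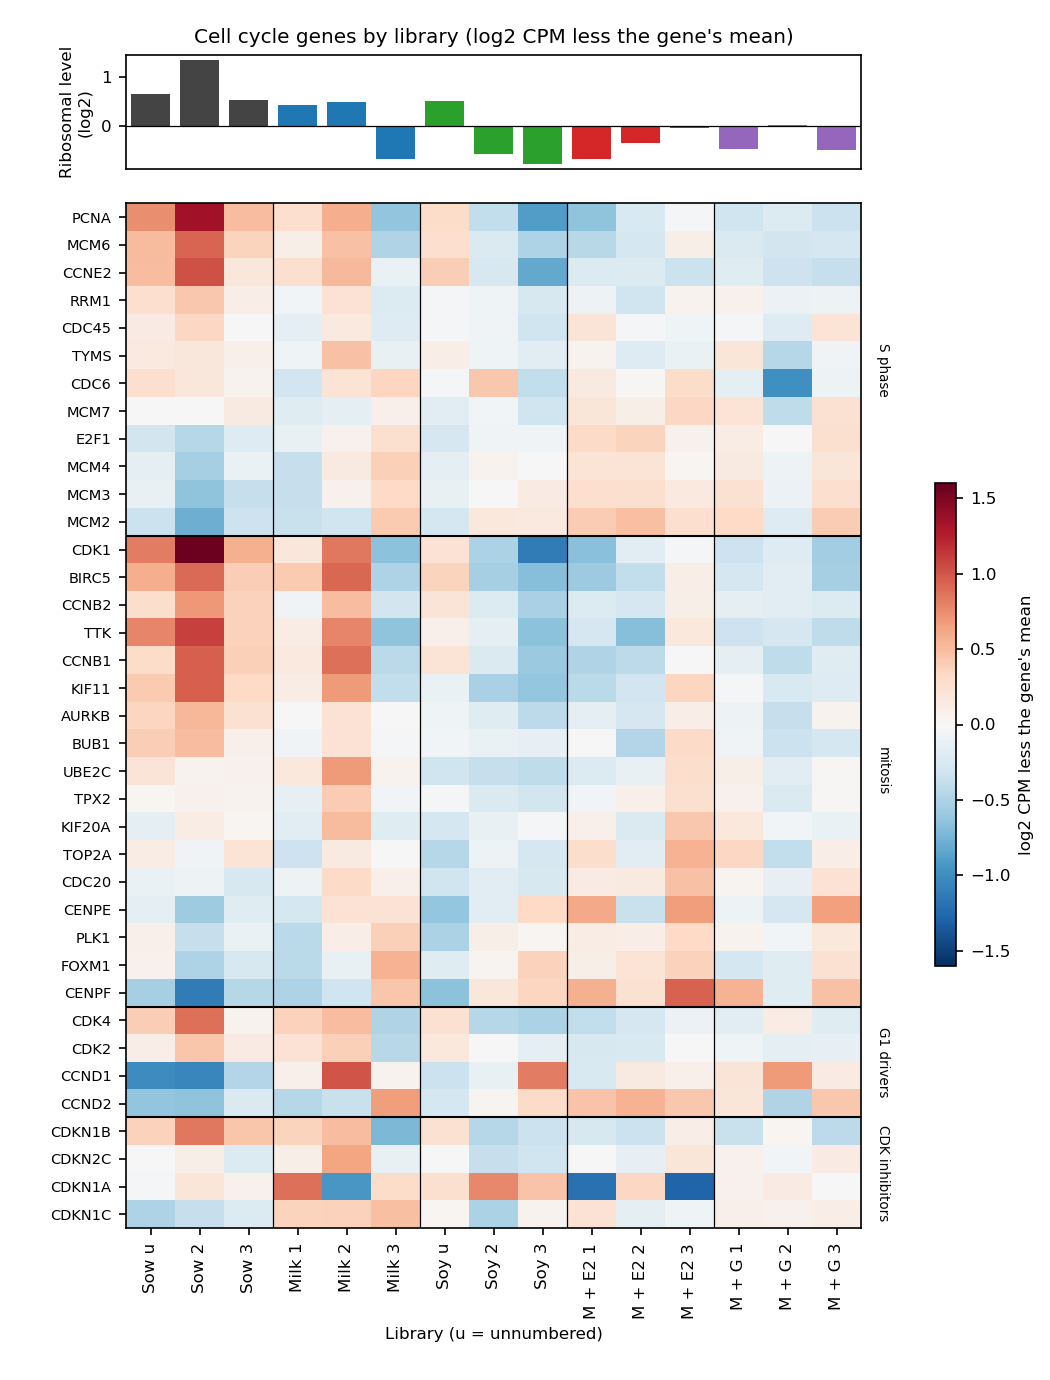
Log2 CPM of the 37 members less each gene's mean over the 15 libraries, by role and library (red higher, blue lower), with the level of the ribosomal protein genes as bars on top. Within each role the genes are ordered by r with that level; PCNA and CDK1 at the head of their blocks are high in Sow, Milk 1, Milk 2 and Soy unnumbered, and MCM2 and CENPF at the foot are low there.

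PCNA (r = 0.98), CDK1 (0.96), CDK4 (0.96), MCM6 (0.96), CDKN1B (0.96) and BIRC5 (0.95) were high where the ribosomal protein genes were high. MCM2 (-0.92), CENPF (-0.87), MCM3 (-0.86), CCND2 (-0.85) and MCM4 (-0.80) were high where they were low. In all 13 members had r above 0.8 and 5 below -0.8, together 48.6% of the members and 30.3% of all genes. TOP2A (-0.12), MCM7 (-0.19), CDC6 (0.07), KIF20A (0.15) and CDKN1A (0.01) were near 0. CDK1 and CDKN1B, which drive and restrain division, stood on the same side.

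For deviations from the diet means r with the ribosomal level was 0.95 for PCNA, 0.93 for CDK1, -0.91 for MCM2 and -0.82 for CENPF, and without Sow 2 it was 0.96, 0.94, -0.89 and -0.82. A ribosomal level of 0.44 or more was found in 6 libraries (Sow, Milk 1, Milk 2 and Soy unnumbered) and of 0.03 or less in the other 9. Within these 9, r was 0.87 for PCNA and 0.86 for CDK1, but -0.48 for MCM2 and -0.13 for CENPF. Within the 6 less Sow 2 (n = 5), r was 0.80, 0.62, 0.03 and -0.19. For MCM2 and CENPF the r thus lay mostly between the 2 sets of libraries. The ribosomal level went weakly with the S phase level as a whole (r = 0.45, and 0.17 without Sow 2 and Soy 3), in which members of both directions cancel. All Sow libraries are among the 6 and all M + E2 and M + G libraries among the 9, so for these diets the diet and the ribosomal level cannot be told apart. Its part in the differences from Sow was not tested further.

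**Figure D5:**
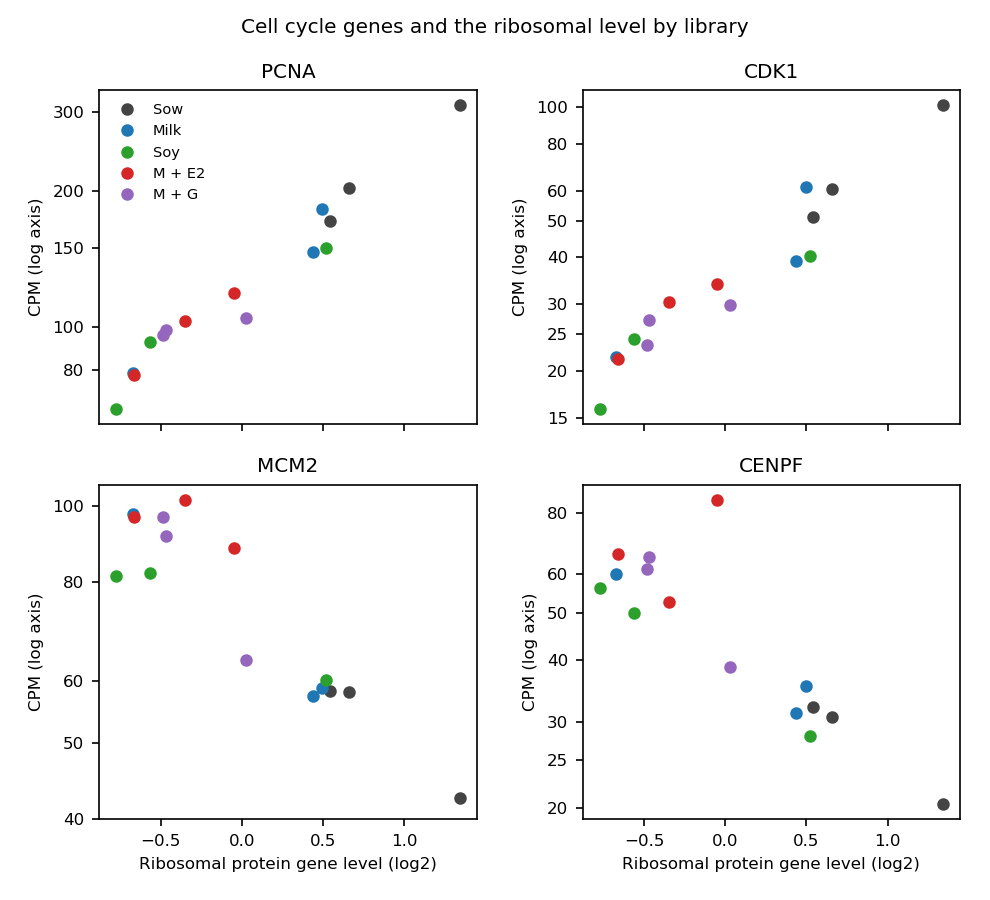
CPM of PCNA, CDK1, MCM2 and CENPF (log axis) against the level of 16 ribosomal protein genes (log2 scale) in each of the 15 libraries, coloured by diet. PCNA (65.6 to 311 CPM) and CDK1 (15.8 to 101.3 CPM) follow the whole axis, and MCM2 and CENPF are lower in the 6 libraries at 0.44 or more than in the other 9, of which M + G 2 comes nearest to them.

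Further cell cycle genes, from lists of the wider pathway, were read in the same fit. For M + E2 against Sow this fit called 5.0% of all genes, the share to set beside the counts below. Of 38 other S phase genes tested, 2 were called in M + E2 against Sow, both lower: RPA3, a subunit of the protein that coats single-stranded DNA, at 36.7 ± 7.86 CPM against 121 ± 4.27 (log2 fold change -1.79 ± 0.43, adjusted p = 0.0402), and DSCC1, which helps hold sister chromatids together, at 2.72 ± 0.48 against 5.82 ± 1.28 (-1.16 ± 0.31, adjusted p = 0.045). RFC5, part of the loader of the PCNA clamp, fell by 0.63 on the log2 scale, short of 2-fold (adjusted p = 0.0423). Of 51 other mitosis genes 0 were called and 1, MIS18A, a factor of centromere identity, passed the adjusted p alone (-0.94 ± 0.24, 0.0423). MAD2L1, of the spindle checkpoint, gave -1.55 ± 0.46 (adjusted p = 0.0527) and the centromere protein CENPN -1.24 ± 0.37 (0.0531).

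Of 28 other genes of G1 and quiescence 0 were called, against 5.0% of all genes. BTG1, an anti-proliferative factor, passed the adjusted p alone (-0.77 ± 0.22, 0.0498), next to LIN9 (-0.99 ± 0.34, 0.0701) and the inhibitor CDKN2D (-0.77 ± 0.27, 0.075). RPA3 was at 124.2, 271 and 118 CPM in Sow, 83.1, 87.2 and 37.4 in Milk, 36.3, 48.4 and 34.5 in M + G, 28.6, 37.3 and 44.3 in M + E2 and 102, 44.6 and 30.1 in Soy. The libraries that were high for PCNA were thus high for RPA3. The medians of the other S phase and other mitosis genes in M + E2 against Sow were both -0.20, with 14 of 38 and 19 of 51 higher. Against Milk none of these genes was called, but neither was any other gene (0% of all genes), so the lists cannot be set apart there.

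Of the 9 listed genes not found by symbol, 4 have a row under their Ensembl identifier alone and were read through a table of gene names, outside the 37. NUSAP1, a spindle protein, was at 225, 298 and 215 CPM in Sow, 190.1, 210.3 and 110.1 in Milk, 136, 138 and 117 in M + G, 116.5, 122 and 166 in M + E2 and 185, 149.5 and 119 in Soy. All Sow libraries were above the formula libraries, and M + E2 against Sow gave -0.77 (adjusted p = 0.0699). The log2 fold changes of the replication licensing factor CDT1 (0.50, adjusted p = 0.167), of cyclin E1 (CCNE1, -0.49, 0.255) and of the checkpoint kinase BUB1B (-0.31, 0.353) also did not pass. CCNE1 had 7.7, 11.1 and 6.7 CPM in Sow, 5.9, 9.5 and 5.6 in Milk, 4.9, 6.2 and 4.1 in M + G, 3.8, 6.3 and 6 in M + E2 and 6.3, 5.8 and 5.2 in Soy. MKI67, MCM5, CCNA2, AURKA and RRM2 were not analysed here.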

How the data were processed

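RNA of 15 piglet testes was measured by RNA-seq. The authors deposited a table of read counts per gene, made by trimming reads and mapping them in CLC Genomics Workbench to a curated gene library and then to the Ensembl pig annotation. Whether it holds all reads was not determined. Group and number came from the labels, and 0 columns were unused. No number was given to 1 Sow and 1 Soy column.

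The 37 members and the further gene lists were chosen with earlier results of these data known. In R 4.3.3, counts were filtered with filterByExpr (minimum count 10) and scaled by TMM, and 1 quasi-likelihood fit of the 5 diets was made in edgeR 4.0.16, with Benjamini-Hochberg adjustment over all genes tested. A gene was called at an adjusted p of 0.05 or less and at least 2-fold. Printed CPM are TMM-scaled over all 15 libraries, and log2 CPM used a prior count of 1. Sow 2 was left out, as in the study's methods, whose exact test was run as an alternative beside DESeq2 1.42.0. The scripts were tested on simulated data. Values per library are given for members called in these 8 comparisons or the test over the 5 diets (0 members), for a fixed set of each role, and for the 3 members of smallest p in M + E2 against Sow and against Milk, and for up to 3 genes of each further list. MCM6, UBE2C and TTK were added after seeing the data.

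Replicate numbers are in the labels with no stated meaning. Deviations from the diet means had r of 0.233, 0.510 and 0.425 between same-numbered Milk and M + G libraries. The r was lower between M + E2 and M + G (0.123, 0.0646 and -0.147) and between Milk and M + E2 (-0.0643, -0.0937 and -0.339). Sow 3 and Soy 3 had 0.499, and Sow 2 and Soy 2 -0.0293. Differently numbered libraries were not compared, so the numbers were not shown to pair libraries. A block on the number was run only as an alternative. No replicate pair agreed within sampling noise, with a chi-square of at least 9.16 per gene. Intervals rest on the spread between libraries. A planned search of promoters was not run.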

Additional observations from a re-analysis of the deposited data

How the results depend on the processing

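Alternatives to the choices above changed counts of calls more than directions. In M + E2 against Sow, where 0 of 37 members were called, 3 were with Sow 2 put back (8.11% of members and 18.1% of all genes). With Sow 2, 15 passed at the adjusted p alone (40.5% and 37.7%), a setting chosen after seeing the data. The fit of the 2 groups compared called 2 (5.41% of members and 12.3% of all genes) and the table without a filter gave 1 (2.70% and 3.89%). The DESeq2 Wald test called 1 (2.70% and 8.80%) and the exact test 2 (5.41% and 12.6%). Leaving out 1 library at a time gave 0 to 8, with 8 for Sow 2 in place of Sow 3 (21.6% of members and 21.3% of all genes). It gave 5 for Sow 2 in place of Sow unnumbered (13.5% and 18.4%), 2 without Milk 3 (5.41% and 9.81%) and 1 without Soy unnumbered (2.70% and 8.49%). In M + G against Sow the counts were 4 with Sow 2 (10.8% of members and 10.3% of all genes) and then 9 at the adjusted p alone (24.3% and 22.3%, also chosen after seeing the data). The fit of the 2 groups gave 2 (5.41% and 5.38%) and the exact test 2 (5.41% and 6.48%). When leaving out 1 library the counts were 0 to 5, with 5 for Sow 2 in place of Sow 3 (13.5% and 13.0%) and 2 for Sow 2 in place of Sow unnumbered (5.41% and 8.32%). In each of these settings CDK1, PCNA, TTK and CCND1 kept their direction in both comparisons, and CENPF in M + E2 against Sow. The cause was not tested.

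With the replicate number as a block, over the numbered libraries with Sow 2 put back, 3 members were called in M + E2 against Sow (8.11% of members and 20.6% of all genes), 4 in M + G against Sow (10.8% and 13.0%) and 10 in Soy against Sow (27.0% and 15.8%). In M + G against Milk, whose same-numbered libraries correlated, 0 were called. Sow shares only 2 numbers with each other diet, and for no diet were the numbers shown to pair libraries.

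When 1 library was left out, the S phase median of M + E2 against Milk ran from -0.13 to 0.076, and the mitosis medians ran from -0.31 to 0.020 in Milk against Sow, -0.31 to 0.014 in M + E2 against Milk and -0.23 to 0.011 in Soy against M + E2 (-0.25 for Sow 2 in place of Sow 3). In M + E2 against Sow TOP2A ran from -0.17 to 0.19 without 1 library (-0.013 without M + E2 1, and 0.22 for Sow 2 in place of Sow 3), and CDKN2C from -0.038 to 0.14, with -0.020 for Sow 2 in place of Sow 3. DESeq2 size factors in place of TMM changed no call or direction among these results. The smallest member count, 30 reads, limits the precision of the lowest genes.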
